A study of Mus musculus with 4 samples.

Results

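The genes described here are 3 metallothioneins and 7 heat shock proteins and chaperones of the mouse retina: Mt1, Mt2, Mt3, Cryab, Hspb1, Hspa5, Hspa8, Hsp90aa1, Dnaja1 and Dnajb1. They were chosen by name, matched by Ensembl gene identifier and symbol, and all 10 were present among the 13452 Ensembl genes of a long-read isoform table. They accounted for 18 of its 44325 isoforms. The cells came from male mice, wild-type C57BL6/J, whose retinas were taken apart with papain, and 4 libraries of single-cell cDNA were read on a nanopore instrument. Of these, 2 libraries were not enriched, with postnatal day 40 given for 1 of them and no age given for the other. The library labelled CD73 enrichment came from postnatal week 8, and its protocol describes the magnetic removal of cells stained for CD73, a photoreceptor surface protein. The library labelled CD90.2 enrichment came from postnatal month 4 and was selected for cells that carry this neuronal surface protein. The series text names fluorescence-activated sorting for both enrichments, whereas the protocol describes magnetic columns.

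The table names 6 cell classes and no library: rods, cones, Müller glia (MG), bipolar cells (BC), retinal ganglion cells (RGC) and amacrine cells (AC). Each class was therefore 1 pooled sample, no difference could be tested, and enrichment, age and class cannot be told apart. Column totals ran from 3509890 counts in ganglion cells to 55437340 in rods. Levels are counts divided by the column total and multiplied by 1000000 (CPM), and all intervals are exact 95% intervals that cover counting error only. The sources do not say whether several reads of 1 molecule were counted once. Differences between classes are described by their size.

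Metallothioneins are small proteins that bind zinc and copper through cysteine residues. Their genes are induced by metals, through the transcription factor MTF1 acting on metal response elements, and by glucocorticoids and oxidative stress. Chaperones of the HSP70 and HSP90 families fold other proteins with the energy of ATP, J-domain proteins deliver clients to HSP70, and small heat shock proteins hold unfolded proteins without ATP. In the retina, Müller glia are known for high levels of metallothioneins and of small heat shock proteins after injury.

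The coding sequences of the metallothioneins show what these genes have in common. They are copied from GENCODE M21 transcripts of mouse build GRCm38, with the cysteine codons in capitals, and they place the 3 genes within 1 cluster on chromosome 8, plus strand. Mt3-202 is shown because its reading frame departs from that of Mt3-201. The spans are those of the coding sequence on the genome, introns included: chr8:94179311-94180193 for Mt1-201, chr8:94172848-94173427 for Mt2-201, chr8:94152800-94154010 for Mt3-201 and chr8:94152800-94153731 for Mt3-202.
Mt1-201: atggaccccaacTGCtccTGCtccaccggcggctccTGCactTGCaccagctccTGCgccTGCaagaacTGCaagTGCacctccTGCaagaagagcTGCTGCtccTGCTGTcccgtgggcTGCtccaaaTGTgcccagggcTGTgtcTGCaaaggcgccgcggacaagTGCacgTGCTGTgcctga
Mt2-201: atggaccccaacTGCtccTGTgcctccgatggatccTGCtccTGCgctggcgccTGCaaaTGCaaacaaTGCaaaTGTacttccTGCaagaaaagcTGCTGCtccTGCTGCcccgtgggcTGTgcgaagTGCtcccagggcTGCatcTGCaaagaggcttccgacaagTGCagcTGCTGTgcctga
Mt3-201: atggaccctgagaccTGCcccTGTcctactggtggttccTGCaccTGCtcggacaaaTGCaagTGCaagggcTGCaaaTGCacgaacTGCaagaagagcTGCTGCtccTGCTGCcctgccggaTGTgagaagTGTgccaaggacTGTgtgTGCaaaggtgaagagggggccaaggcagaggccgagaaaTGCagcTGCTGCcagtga
Mt3-202: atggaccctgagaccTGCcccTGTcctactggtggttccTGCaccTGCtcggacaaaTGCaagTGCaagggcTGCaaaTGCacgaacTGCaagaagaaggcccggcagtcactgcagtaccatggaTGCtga

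Mt1 and Mt2 each have 61 codons before the stop, and 20 of them encode cysteine. Mt3-201 has 68 codons with the same number of cysteine codons. In a global alignment, Mt1 and Mt2 were identical at 79.6% of positions of the coding sequence, Mt1 and Mt3 at 66.2%, and Mt2 and Mt3 at 67.6%. The longer Mt3 sequence accounts for 21 gap positions in each alignment with Mt3. Reads of such short and similar transcripts can in principle be placed on the wrong gene, and the aligner is not given in the sources used here.

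The deposited models of the metallothioneins begin downstream of the annotated starts. The Mt1 model starts 152 bases after the RefSeq start, the Mt2 model 242 bases after it and the Mt3 model 139 bases after it. The Mt2 model begins 12 bases inside the coding sequence. Metal response elements were therefore searched in the 240 bases that end 11 bases before each model start, as TGCACNC or TGCGCNC on either strand. This window held 5 matches for Mt1, 4 for Mt2 and 3 for Mt3. Among 32851 RefSeq promoter windows of the same length, placed on RefSeq starts, 20.4% held at least 1 match and 1.18% held 3 or more. In those RefSeq windows Mt1 had its match at position -23 only, Mt2 had matches at -223, -128 and -50, and Mt3 had none, so the counts depend on where the start is placed. The 30 bases with the most matches are shown for each gene on GRCm38, plus strand, with the matches in capitals, at chr8:94179086-94179115, chr8:94172672-94172701 and chr8:94152611-94152640. All 3 stretches begin after the M21 starts (94179082, 94172664 and 94152607) and so lie within annotated first exons. The RefSeq windows lie before annotated starts, so their shares are not a like background. A match describes the letters and says nothing of binding.
Mt1 site: agctcTGCACTCcgcccgaaaagTGCGCTC
Mt2 site: gggcGTGTGCAggcggcgggggcGCGTGCA
Mt3 site: tcagtggagactcgggacagcagTGCACAC

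The columns were first checked against marker genes of the retinal classes. All 6 rod, cone, bipolar and amacrine markers were highest in their own column, as were 5 of 6 Müller glia markers and all 4 ganglion cell markers with at least 100 counts. Amacrine markers summed to only 717 CPM in their column. Rod markers summed to 30811 CPM in rods, 6240 in cones, 2135 in Müller glia, 585 in bipolar cells and 192 in amacrine cells, and all 6 were at 0 in ganglion cells. Markers of several other cell types without a column summed highest in the Müller glia column. Pigment epithelium markers summed to 8878 CPM there, with 1 of 6 at 0, against 2.85 to 62.4 CPM in the other columns. Of these 6 markers, 5 were highest in Müller glia and 1 in ganglion cells. Microglial markers summed to 1609 CPM there and 9.97 to 694 elsewhere. Pericyte markers summed to 619 CPM against 6.27 to 19.9, endothelial markers to 118 CPM against 0 to 7.03, and astrocyte markers to 120 CPM against 2.74 to 40.0. Only 3 of 6 endothelial markers were present, 1 of them with at least 100 counts. Of 4 astrocyte markers with at least 100 counts, 3 were highest in Müller glia and 1 in bipolar cells. A sum of markers does not say which cells the counts came from. Horizontal cell markers did not, with 221 CPM in amacrine cells, 214 in ganglion cells and 93.3 in Müller glia, against 39.0 to 80.5 in the others. The part of these cells in the Müller glia values given below was not tested.

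Mt1 was highest in Müller glia and lowest in cones. It had 4317 CPM in Müller glia, 1664 in bipolar cells, 1274 in amacrine cells, 1103 in ganglion cells, 252 in rods and 110 in cones, from 154835 counts of the single isoform Mt1-201. Müller glia stood 2.59-fold (2.56 to 2.63) above bipolar cells and 39.2-fold (36.6 to 42.1) above cones. No 2 neighbours in this order had a ratio whose interval reached 1. The inner retinal columns and Müller glia were thus all above both photoreceptor columns.

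Mt2, its paralogue, was also highest in Müller glia and lowest in cones. It had 463 CPM in Müller glia, 214 in bipolar cells, 53.6 in ganglion cells, 51.9 in amacrine cells, 33.5 in rods and 11.1 in cones, from 13662 counts. Müller glia stood 2.17-fold (2.07 to 2.26) above bipolar cells. Ganglion and amacrine cells did not differ beyond counting error, at 1.03-fold (0.885 to 1.20).

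The 2 paralogues did not keep a constant ratio over the classes. There were 24.5 Mt1 counts per Mt2 count in amacrine cells (23.6 to 25.6) and 20.6 in ganglion cells (17.8 to 24.0). The other columns had 9.93 in cones (7.89 to 12.6), 9.33 in Müller glia (8.98 to 9.70), 7.79 in bipolar cells (7.59 to 8.00) and 7.52 in rods (7.17 to 7.90). The intervals of amacrine and ganglion cells overlapped each other and stood apart from those of the other 4 columns. This ratio does not depend on the column total, and it is a ratio of counts that were not adjusted for length.

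**Figure D1:**
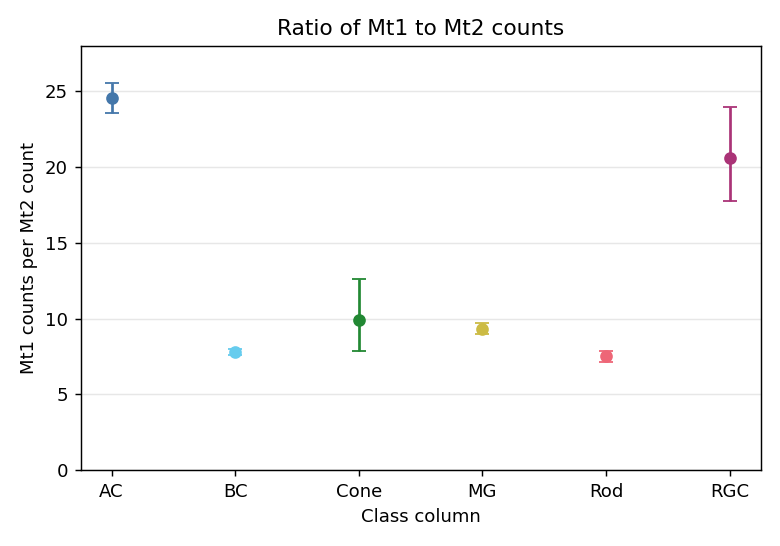
Ratio of Mt1 to Mt2 counts on a linear axis from 0 (vertical) in each of the 6 class columns (horizontal), with exact 95% intervals for counting error. Amacrine cells at 24.5 and ganglion cells at 20.6 lie above the other columns, which lie between 7.52 and 9.93.

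Mt3, the metallothionein known from brain neurons and glia as growth inhibitory factor, had a different order. It had 2359 CPM in ganglion cells, 964 in Müller glia, 340 in bipolar cells, 249 in amacrine cells, 93.0 in rods and 38.6 in cones, from 41506 counts of both isoforms. Ganglion cells stood 2.45-fold (2.37 to 2.53) above Müller glia, which stood 2.84-fold (2.75 to 2.93) above bipolar cells. Cones were again lowest, 61.1-fold (54.3 to 69.1) below ganglion cells. All neighbours in this order differed beyond counting error. The ganglion cell column held its own markers, and all 6 rod markers were at 0 there. That column had counts for 7364 Ensembl genes, against 10399 to 12472 in the others. The part of depth or of the isoform filter in the rod markers at 0 was not tested, and the library the column came from is not given.

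**Figure D2:**
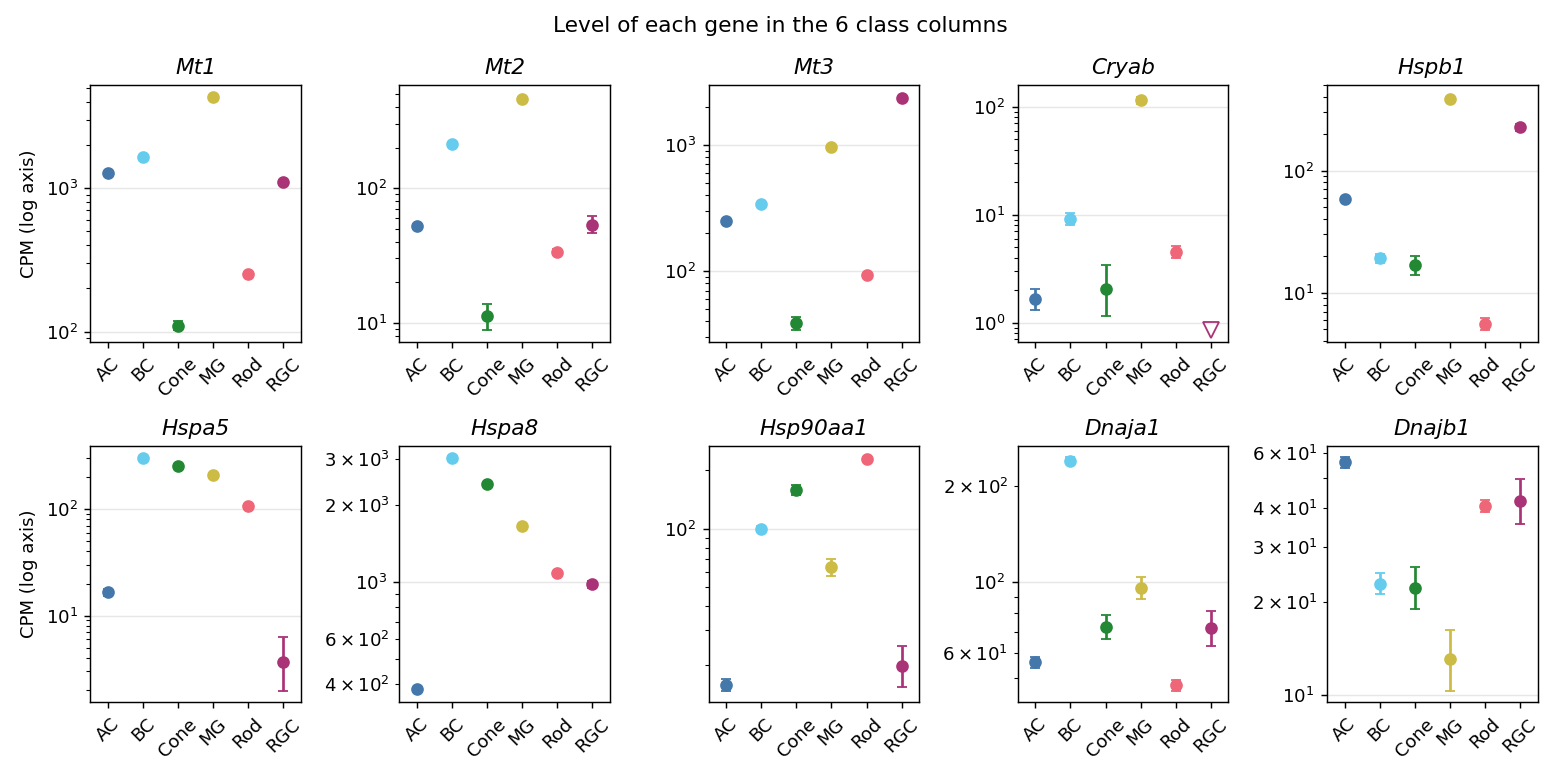
CPM on a log axis (vertical) of each of the 10 genes in the 6 class columns (horizontal), with exact 95% Poisson intervals; each panel has its own scale, and the open triangle marks the 0.855 CPM limit for Cryab in ganglion cells, where it had no count. Mt1, Mt2, Cryab and Hspb1 are highest in Müller glia, Mt3 in ganglion cells and Hspa5, Hspa8 and Dnaja1 in bipolar cells.

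Mt3 was listed with 2 annotated isoforms that share their first exons and the start of the last intron. Mt3-202 uses a last exon that begins at 94153697 in place of 94153901 on chromosome 8, so that it is 450 bases long against 246. The first 97 coding bases are common to both. In Mt3-202 the frame then runs 35 bases to a stop, which gives 43 codons with 10 cysteine codons, against 68 codons with 20 in Mt3-201. The 20 coding bases on each side of the last junction are shown with those of the last exon in capitals.
Mt3-201 junction: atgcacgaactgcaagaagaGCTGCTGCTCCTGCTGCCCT
Mt3-202 junction: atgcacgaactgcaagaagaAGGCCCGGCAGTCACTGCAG

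Mt3-201 led in every column. Mt3-202 had 703 of 12020 Mt3 counts in amacrine cells (5.85%, 5.44 to 6.28%) and 333 of 8279 in ganglion cells (4.02%, 3.61 to 4.47%). It had 260 of 9859 in bipolar cells (2.64%), 126 of 5153 in rods (2.45%), 6 of 282 in cones (2.13%, 0.785 to 4.57%) and 56 of 5913 in Müller glia (0.947%, 0.716 to 1.23%). Amacrine cells had the largest share and Müller glia the smallest, 4.90 percentage points apart, and the intervals of amacrine cells, ganglion cells and Müller glia did not overlap. The short-frame isoform was thus a minor part of Mt3 in every class.

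Cryab encodes alpha-B-crystallin, a small heat shock protein abundant in the lens. It had 115 CPM in Müller glia (107 to 124), 9.17 in bipolar cells (8.10 to 10.3), 4.49 in rods (3.95 to 5.09), 2.05 in cones (1.15 to 3.39) and 1.64 in amacrine cells (1.30 to 2.04). In ganglion cells 0 of 3509890 counts fell on it, which allows up to 0.855 CPM by the limit of 3 counts. Müller glia stood 12.6-fold (10.9 to 14.5) above bipolar cells, the largest lead among the 10 genes. The point value in Müller glia was 135-fold that limit for ganglion cells. The ganglion cell column had counts for 7364 Ensembl genes, against 10816 in Müller glia, and the isoform filter is not given. The part of depth or of the filter in the count of 0 was not tested. Cones and amacrine cells did not differ beyond counting error, at 1.25-fold (0.670 to 2.20). Cryab rested on 1316 counts, the fewest of the 10 genes.

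Of the 5 Cryab isoforms, Cryab-205 led in each of the 5 columns with counts. It had 587 of 707 counts in Müller glia (83.0%, 80.1 to 85.7%), 221 of 266 in bipolar cells (83.1%), 180 of 249 in rods (72.3%), 9 of 15 in cones and 27 of 79 in amacrine cells (34.2%, 23.9 to 45.7%). In amacrine cells Cryab-203 was close, with 24 of 79 (30.4%, 20.5 to 41.8%) and an overlapping interval. The isoforms differ at their first exon, some differ at the next exon as well, and all end at the same base. Cryab-203 starts where Cryab-205 does, but its first exon ends at 50753084 in place of 50753095. Cryab-202 and Cryab-206 have a next exon of 397 bases against 292, and the unannotated isoform has an extra exon of 15 bases. Models with a first exon farther upstream than that of Cryab-205 had 28 of 79 counts in amacrine cells (35.4%), 4 of 15 in cones, 44 of 249 in rods (17.7%), 87 of 707 in Müller glia (12.3%) and 9 of 266 in bipolar cells (3.38%). The upstream first exons lie within Hspb2 (chr9:50751078-50752354), a small heat shock gene on the opposite strand. Hspb2 had 45.3 CPM in Müller glia and 0 to 0.517 CPM elsewhere. The sources used here do not say whether strand was used in counting, so the reads of the upstream exons and of Hspb2 may not be separate. The unannotated isoform of Cryab had 33 counts in Müller glia, 13 in rods and none elsewhere, and its introns were all in M21.

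Hspb1, the small heat shock protein HSP27, was highest in Müller glia with ganglion cells next. It had 388 CPM in Müller glia, 226 in ganglion cells, 59.0 in amacrine cells, 19.1 in bipolar cells, 16.8 CPM in cones and 5.56 in rods, from 7004 counts of a single isoform. Müller glia stood 1.71-fold (1.58 to 1.86) above ganglion cells, and ganglion cells 3.83-fold (3.54 to 4.15) above amacrine cells. Bipolar cells and cones did not differ beyond counting error, at 1.14-fold (0.933 to 1.39). Rods were lowest, 69.8-fold (61.9 to 78.8) below Müller glia. The 240-base window before the RefSeq start of Hspb1 held GAANNTTC, the inverted pair of a heat shock element, at positions -117 and -97. Of the promoter windows, 6.33% held this motif. The deposited Hspb1 model begins at 135888018, downstream of the RefSeq start at 135887919.

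Hspa5, the HSP70 of the endoplasmic reticulum also called BiP, was highest in bipolar cells and lowest in ganglion cells. It had 300.0 CPM in bipolar cells, 252 CPM in cones, 207 in Müller glia, 106 CPM in rods, 16.5 in amacrine cells and 3.70 in ganglion cells (1.97 to 6.33, from 13 counts). Neighbouring columns all differed beyond counting error. The step between rods and amacrine cells was 6.43-fold (5.97 to 6.93), and the span from bipolar to ganglion cells was 81.0-fold (47.3 to 152). Amacrine and ganglion cells were thus far below the other 4 columns. The window before the RefSeq start of Hspa5 held 1 endoplasmic reticulum stress element (ERSE), searched on both strands, at -65, which 0.113% of the promoter windows held. M21 places an exon of Hspa5-201 across part of this window.

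Hspa8, the constitutive HSP70 of the cytosol that also uncoats clathrin vesicles, had the most counts of the 10 genes, 197472. It had 3034 CPM in bipolar cells, 2401 CPM in cones, 1650 in Müller glia, 1080 CPM in rods, 978 in ganglion cells and 383 in amacrine cells. Bipolar cells stood 1.26-fold (1.24 to 1.28) above cones, and 7.91-fold (7.79 to 8.04) above amacrine cells. All neighbours differed beyond counting error, the closest being rods and ganglion cells at 1.10-fold (1.07 to 1.14). The span was narrow beside that of Hspa5, although bipolar cells, cones, Müller glia and rods stood in the same order for both genes.

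Hsp90aa1, the stress-inducible HSP90 of the cytosol, was the only one of the 10 genes that was highest in rods. It had 229 CPM in rods, 158 in cones, 100.1 in bipolar cells, 63.3 in Müller glia, 19.7 in ganglion cells and 15.8 in amacrine cells. Rods stood 1.44-fold (1.36 to 1.53) above cones and 14.5-fold (13.5 to 15.6) above amacrine cells. Ganglion and amacrine cells did not differ beyond counting error, at 1.24-fold (0.958 to 1.59).

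Counts of Hsp90aa1 were divided between Hsp90aa1-202, with 11 exons and 2721 bases, and an unannotated model of 6 exons and 735 bases. The short model begins at the same base on the minus strand of chromosome 12 and ends at 110694294, inside the coding sequence. It holds 713 of the 2202 coding bases and an extra exon of 15 bases at chr12:110695766-110695780 before the coding sequence. All of its introns were in M21, but no M21 transcript of the gene has an exon with the ends of this 15-base exon. The 30 coding bases that follow its end in the full-length transcript (chr12:110694264-110694293, minus strand) are shown with A in capitals, because they describe where the model stops.
Hsp90aa1 end: ggAAgAgAAAgAggAAgAgAAAgAAAAAgA

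These 30 bases held 19 A, against 12 A in the 30 bases before the end. Of the 2173 windows of this length in the coding sequence, 49 (2.25%) held at least as many, and the richest held 21. The protocol made cDNA from polyadenylated RNA, and the part of the A-rich stretch in the short model was not tested. The short model had 206 of 388 counts in Müller glia (53.1%, 48.0 to 58.1%), 576 of 1158 in cones (49.7%), 5598 of 12681 in rods (44.1%), 327 of 762 in amacrine cells (42.9%), 1062 of 2905 in bipolar cells (36.6%, 34.8 to 38.3%) and 21 of 69 in ganglion cells (30.4%, 19.9 to 42.7%). It led only in Müller glia, where the interval of its share reached below 50%. Counting Hsp90aa1-202 alone left rods highest, with a lead over cones of 0.68 on the log2 scale against 0.53 for both models.

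**Figure D3:**
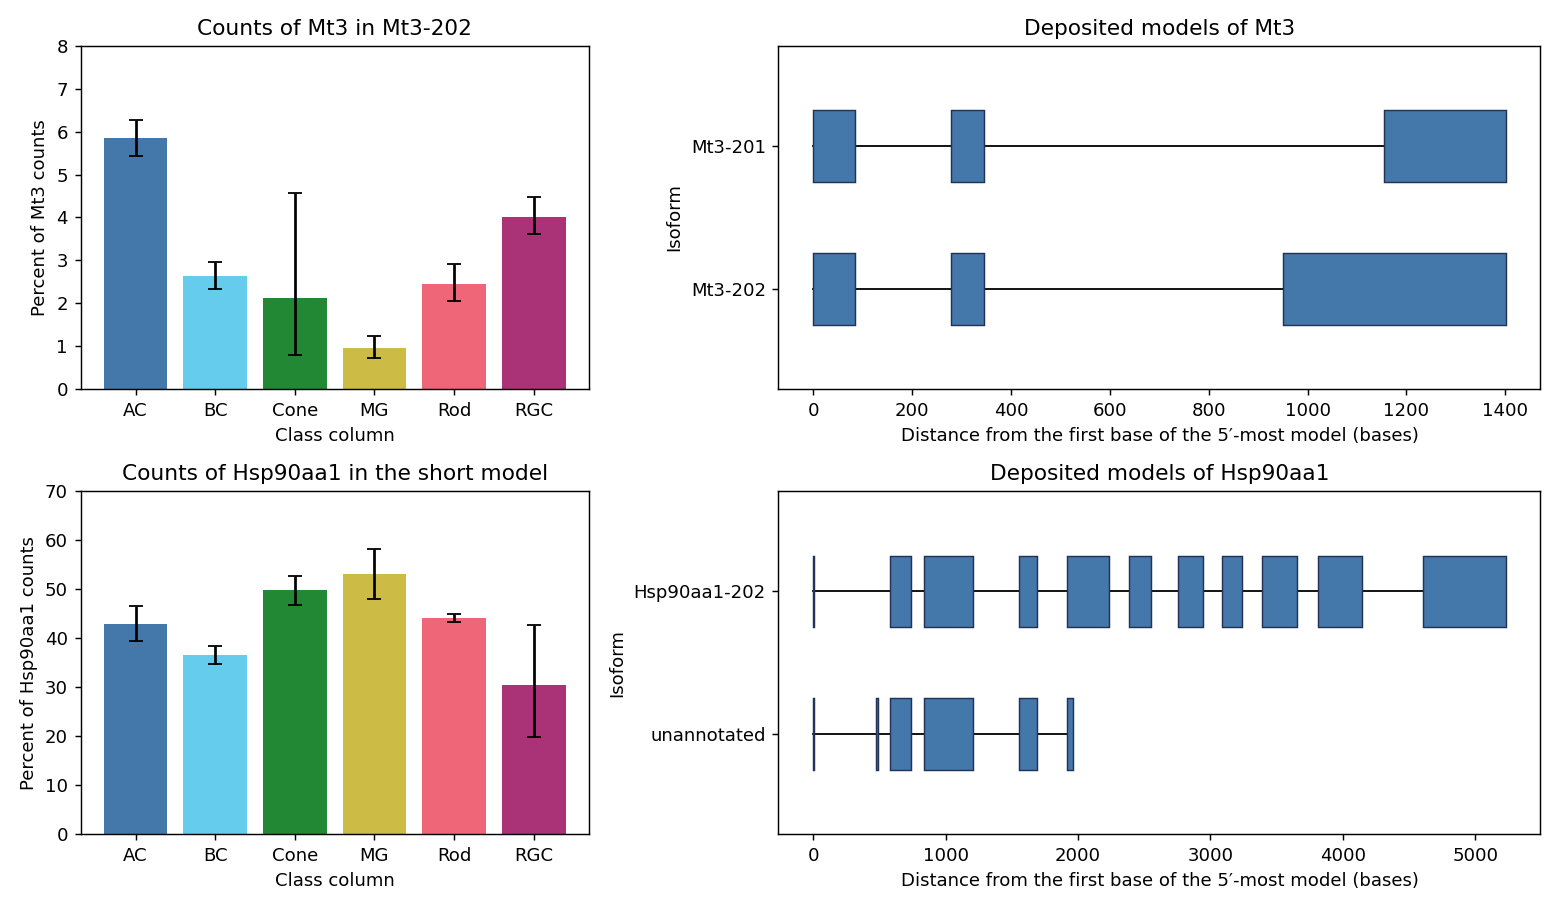
Left, percent of the counts of Mt3 in Mt3-202 and of Hsp90aa1 in the short model (vertical) by class column (horizontal), as bars from 0 with exact 95% intervals. Right, exons (boxes) and introns (lines) of the deposited models by distance in bases from the first base; Mt3-202 has a last exon of 450 bases and the short Hsp90aa1 model has 6 exons against 11.

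Dnaja1 and Dnajb1 are J-domain co-chaperones of HSP70, and their orders over the columns differed. Dnaja1 had 240 CPM in bipolar cells, 96.0 in Müller glia, 72.4 in cones, 71.8 in ganglion cells, 56.1 in amacrine cells and 47.6 in rods, from 13682 counts. Bipolar cells stood 2.50-fold (2.30 to 2.73) above Müller glia, and cones and ganglion cells did not differ beyond counting error. Dnajb1, the heat-inducible HSP40, had 56.1 CPM in amacrine cells, 42.2 in ganglion cells, 40.6 in rods, 22.9 in bipolar cells, 22.2 in cones and 13.0 in Müller glia, from 6013 counts. Amacrine cells stood 1.33-fold (1.13 to 1.58) above ganglion cells. Ganglion cells and rods did not differ beyond counting error, nor did bipolar cells and cones. Dnajb1 was the only one of the 10 genes that was lowest in Müller glia, 4.30-fold (3.44 to 5.44) below amacrine cells.

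Dnaja1 was also the gene whose isoforms differed most between classes. Dnaja1-201 starts at an upstream first exon of 75 bases (chr4:40722559-40722633). Dnaja1-210 and an unannotated isoform start at 40722922, with first exons of 215 and 80 bases, and have a last exon of 1173 bases against 380 in the model of Dnaja1-201. The exons between are the same in all 3 models, and every intron was in M21. The first exons lie before the coding sequence, so the models differ in their untranslated ends. The miRNA gene Mir207 is annotated at chr4:40722917-40722995, across the downstream first exon.

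Dnaja1-201 held nearly all counts in cones, rods and bipolar cells. The downstream first exon, summed over both isoforms that use it, had 175 of 252 counts in ganglion cells (69.4%, 63.4 to 75.1%) and 1616 of 2707 in amacrine cells (59.7%, 57.8 to 61.6%). It had 51 of 589 in Müller glia (8.66%, 6.51 to 11.2%), 285 of 6968 in bipolar cells (4.09%, 3.64 to 4.58%), 69 of 2637 in rods (2.62%, 2.04 to 3.30%) and 13 of 529 in cones (2.46%, 1.31 to 4.17%). Amacrine and ganglion cells thus shared models that were rare elsewhere, with this first exon and the last exon of 1173 bases. The counts do not separate the first exon from the last. By single isoform, Dnaja1-210 led in ganglion cells with 128 of 252 counts (50.8%, 44.4 to 57.1%), and Dnaja1-201 led in the other columns, in amacrine cells with 1091 of 2707 (40.3%). The unannotated isoform held 603 of 2707 counts in amacrine cells (22.3%), 47 of 252 in ganglion cells (18.7%) and 1.02 to 1.89% in the other columns.

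**Figure D4:**
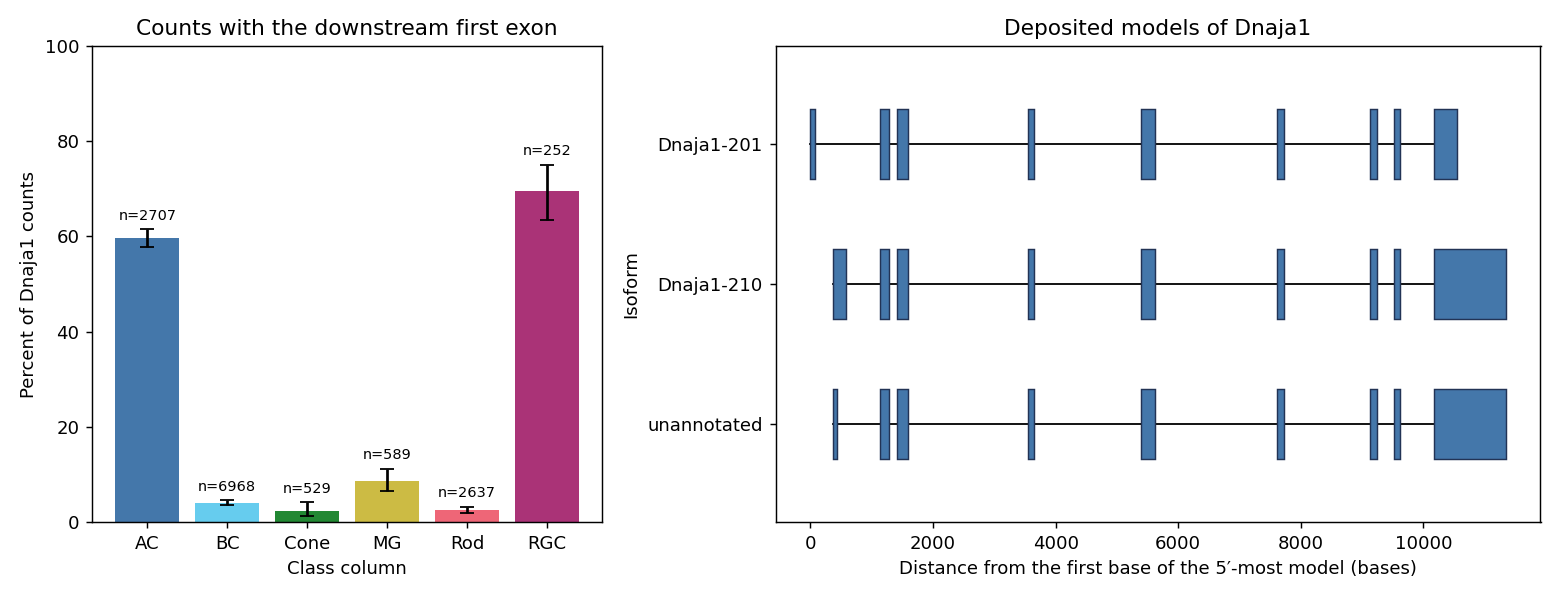
Left, percent of Dnaja1 counts with the downstream first exon (vertical) by class column (horizontal), as bars from 0 with exact 95% intervals and the number of Dnaja1 counts above each bar. Right, exons (boxes) and introns (lines) of the 3 deposited models by distance in bases from the first base; ganglion cells reach 69.4% and amacrine cells 59.7%, and the other columns stay at or below 8.66%.

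The stretches before both first exons are shown because the shares of the models that use them differed between classes. RefSeq's GRCm38 promoter table gives 240 bases, from 250 to 11 before the start, for the starts at 40722468 and 40722922 on the plus strand (chr4:40722218-40722457 and chr4:40722672-40722911). The deposited model of Dnaja1-201 begins downstream of the first of these starts. M21 places an exon of the noncoding transcript Dnaja1-207 across part of the upstream window. GAANNTTC matches are in capitals.
Dnaja1 upstream of 40722468: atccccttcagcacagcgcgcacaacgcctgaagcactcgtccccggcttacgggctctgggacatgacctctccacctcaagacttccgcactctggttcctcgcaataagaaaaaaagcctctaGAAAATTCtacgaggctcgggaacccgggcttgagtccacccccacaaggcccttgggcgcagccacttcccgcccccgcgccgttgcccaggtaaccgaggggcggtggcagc
Dnaja1 upstream of 40722922: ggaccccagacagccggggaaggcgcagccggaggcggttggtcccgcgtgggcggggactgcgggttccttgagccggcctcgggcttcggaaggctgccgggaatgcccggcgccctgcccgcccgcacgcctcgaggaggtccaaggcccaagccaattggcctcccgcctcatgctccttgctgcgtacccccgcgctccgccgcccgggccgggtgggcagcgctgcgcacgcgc

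The upstream window held 1 inverted pair of the heat shock element, at -124, and the downstream window held none. Neither window held the facing pair TTCNNGAA, which 6.87% of promoter windows held. The Hspb1 window held no facing pair. For Dnajb1, the windows before the RefSeq starts at 83608175 and 83608548 held neither pair, and the latter window lies within an exon of Dnajb1-201. Both motifs read the same on either strand. No match says only that these letters are not in the window.

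Among the 10 genes, Müller glia were highest for 4 (Mt1, Mt2, Cryab and Hspb1), bipolar cells for 3 (Hspa5, Hspa8 and Dnaja1), and amacrine cells, rods and ganglion cells for 1 each. Of all 9868 Ensembl genes with at least 100 counts, 17% were highest in Müller glia, 13.9% in bipolar cells, 19.7% in amacrine cells, 26.1% in rods, 15% in ganglion cells and 8.29% in cones. All 10 genes passed the minimum of 100 counts. The highest column stood at least 2-fold above the next for 5 of the 10 genes (Mt1, Mt2, Mt3, Cryab and Dnaja1), where 29.9% of all genes met this rule. Müller glia led 2-fold for 3 of them (Mt1, Mt2 and Cryab) against 8.28% of all genes, and ganglion cells for Mt3 against 4.26%. The median lead on the log2 scale was 0.95 for the 10 genes and 0.55 for all genes.

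**Figure D5:**
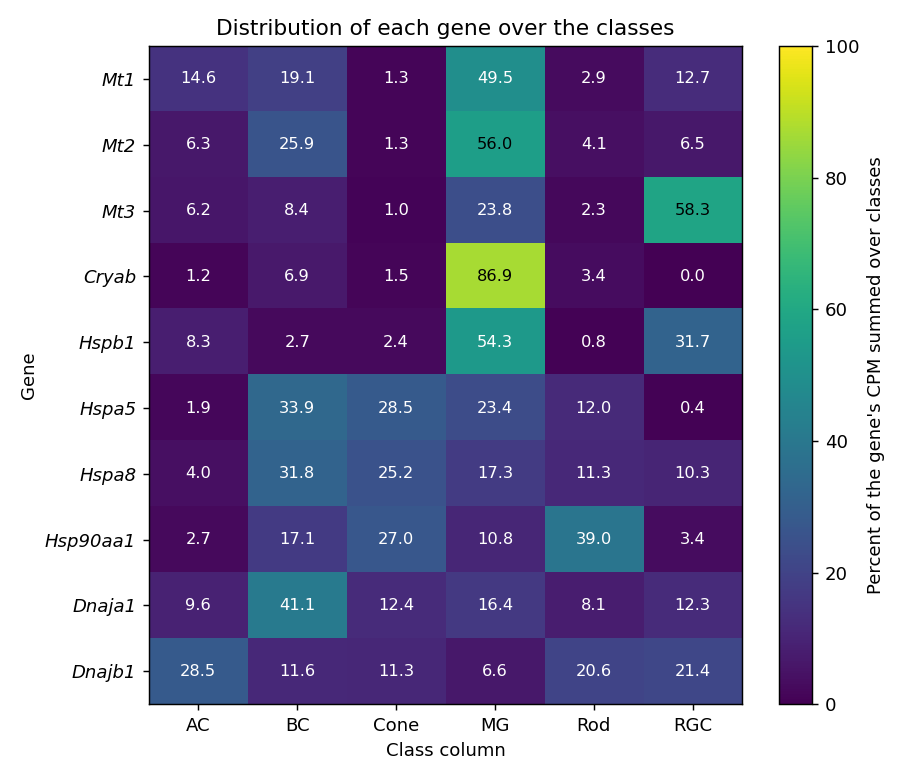
Percent of each gene's CPM, summed over the 6 class columns, that fell in each column (horizontal) for the 10 genes (vertical); colour runs from 0 to 100%. Müller glia hold 49.5% for Mt1, 56.0% for Mt2, 86.9% for Cryab and 54.3% for Hspb1, and ganglion cells hold 58.3% for Mt3.

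Amacrine and ganglion cells were the pair of lowest columns for 4 of the 10 genes, Cryab, Hspa5, Hspa8 and Hsp90aa1, against 21.3% of all genes. This grouping was chosen after the values were seen. The place of Cryab in it is not settled, since its cones and amacrine cells did not differ beyond counting error, at 1.25-fold (0.670 to 2.20). Hspa5, Hspa8 and Hsp90aa1 have leading models of 2531, 2101 and 2721 bases, so length was read beside all 10 genes. The mean CPM of amacrine and ganglion cells was set over the mean of the other 4 columns, each plus 1, on the log2 scale. This ratio was -4.29 for Hspa5, -2.89 for Hsp90aa1 and -1.58 for Hspa8, and 0.97 for Dnajb1 with a model of 2143 bases. It was -4.21 for Cryab with a leading model of 863 bases, -1.75 for Mt2 with 311 bases, -0.42 for Mt1 with 390 bases and 1.86 for Mt3 with 397 bases. For Dnaja1 with 1440 bases it was -0.82, and for Hspb1 with 802 bases 0.41. Over the 2690 genes with leading models of 2000 to 3000 bases its median was -0.36, and over the 232 genes with models under 500 bases it was -0.15. The mean model length per count was 1034 bases in both columns, within the range of 999 to 1094 over all columns. The part of length in the low values was not tested.

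A dominant isoform switch required 20 or more counts of the gene in 2 classes, another leading isoform, and a share that differed by at least 50 percentage points. Of the 4 genes with several isoforms, Dnaja1 met this rule, where 25% of 7317 comparable genes did. Its largest difference was 67.0 points for Dnaja1-201 between cones and ganglion cells. A difference of at least 20 points between classes with at least 100 counts was met by Dnaja1 alone among the 4, where 46.1% of 4739 genes met it. The largest differences by this measure were 16.5 points for Hsp90aa1, 10.8 for Cryab and 4.90 for Mt3. The minimum of 100 counts left out the amacrine column of Cryab, with 79 counts, where Cryab-205 held 34.2% against 83.1% in bipolar cells. With a minimum of 50 counts, 3 of the 4 genes met the rule, Dnaja1, Cryab and Hsp90aa1.

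Unannotated isoforms were 3 of the 18 (16.7%, 3.58 to 41.4%), where 60.3% of all isoforms of Ensembl genes were unannotated. They held 1.82% of the counts of the 10 genes. All 55 distinct introns of the 18 models were in M21, and all 15 annotated models had the introns of their identifier. An isoform with at least 10 counts was called restricted when 80% or more of its summed CPM lay in 1 class. This held for 3 of 18 isoforms, all of Cryab in Müller glia, where 26.9% of isoforms of Ensembl genes met it. The restricted isoforms were the unannotated one with 95.8% of summed CPM, Cryab-205 with 88.3% and Cryab-206 with 85.6%.

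Other genes of metal handling, which store, move, use or respond to metals, did not share a single highest class. Of 20 listed genes 18 were in the table and 13 had at least 100 counts, of which 4 were highest in Müller glia, 4 in rods, 3 in amacrine cells and 2 in ganglion cells, and 5 were led 2-fold. The 3 with the most counts were Ftl1, Atox1 and Sod1. Ftl1, the ferritin light chain, had 5501 CPM in amacrine cells and 5140 in Müller glia against 1031 in rods. Atox1, a copper chaperone, had 942 CPM in amacrine cells, 883 in ganglion cells and 845 in Müller glia against 328 in cones. Sod1, the copper-zinc superoxide dismutase, had 866 CPM in ganglion cells and 847 in amacrine cells and 91.6 in Müller glia, its lowest column.

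Heat shock genes of the cytosol and mitochondria other than the 10 were spread over all classes. Of 31 listed genes 28 had at least 100 counts, with 6 highest in bipolar cells, 6 in amacrine cells, 6 in ganglion cells, 4 in rods, 3 in cones and 3 in Müller glia, and 5 were led 2-fold. Their summed level ran from 2618 CPM in rods to 3953 in amacrine cells. The 3 with the most counts were Hspe1, Dnajb6 and Cdc37. Hspe1, the mitochondrial HSP10, had 1485 CPM in amacrine cells against 558 in rods. Dnajb6 had 956 CPM in amacrine cells against 230 in Müller glia. Cdc37, a co-chaperone that brings kinases to HSP90, had 364 CPM in ganglion cells against 203 in Müller glia.

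Among 7 other genes listed as small heat shock genes, 4 had at least 100 counts, of which 2 were highest in Müller glia, 1 in bipolar cells and 1 in cones. Of the 4, 2 were led 2-fold. Hspb6 had 872 CPM in cones and 356 in rods against 34.2 in Müller glia, an order unlike that of Cryab and Hspb1. Hspb11, a small heat shock gene by name only, had 229 CPM in bipolar cells and 222 in Müller glia against 123 in rods. Hspb8 was low throughout, with 5.87 CPM in Müller glia, 5.70 in ganglion cells and 5.45 in amacrine cells, and at most 0.483 CPM in the other columns.

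Endoplasmic reticulum chaperones and stress factors summed to 2870 CPM in bipolar cells, 2465 in Müller glia, 2428 in cones, 2026 in rods, 1969 in amacrine cells and 1199 in ganglion cells. Of 21 listed genes 20 had at least 100 counts, with 8 highest in bipolar cells, 5 in rods, 3 in Müller glia, 2 in cones, 2 in amacrine cells and none in ganglion cells, and 2 were led 2-fold. Manf, a secreted factor of the unfolded protein response, had 620 CPM in cones against 195 in ganglion cells. Ddit3, the stress transcription factor CHOP, had 698 CPM in amacrine cells and 202 to 293 in the other columns, unlike Hspa5. Pdia6, a disulfide isomerase, had 453 CPM in Müller glia and 423 in bipolar cells against 55.0 in amacrine cells and 51.6 in ganglion cells, and so had the same pair of low columns as Hspa5.

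Immediate early genes, which respond within minutes to stimulation and to tissue dissociation, were read because dissociation can also induce stress genes. Their summed level was 1568 CPM in Müller glia, 380 in bipolar cells, 242 in amacrine cells, 156 in cones, 152 in rods and 66.4 in ganglion cells. Of 10 listed genes 7 had at least 100 counts, with 5 highest in Müller glia, 1 in amacrine cells (Egr1) and 1 in bipolar cells (Nr4a1). The lead was 2-fold or more for 5 of them, 4 in Müller glia and Egr1 in amacrine cells. Both Egr1 and Nr4a1 were picked out after their values were seen. Egr1 had 21.1 CPM in amacrine cells against 2.12 in Müller glia, and Nr4a1 24.8 CPM in bipolar cells against 5.54 in Müller glia. Fos had 837 CPM in Müller glia against 271 in bipolar cells, and Jun had 422 CPM in Müller glia against 43.4 in rods. Dusp1 had 158 CPM in Müller glia against 79.1 in amacrine cells. The summed level and 5 of the 7 genes were thus highest in Müller glia, as were Mt1, Mt2, Cryab and Hspb1. The part of dissociation in those values was not tested.

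Genes with the most similar distribution were found among 5225 genes with at least 1000 counts, by the Euclidean distance between percents of summed CPM over the 6 columns. The columns share depth and composition, so the distances are descriptions. Genes near Cryab included Pdlim4 at 1.39 percentage points and Trip6 at 2.12. Mt1 was nearest to Ncald at 4.29 points, Blvrb at 8.73 and Cnpy4 at 10.3, and Mt2 to Tifa at 3.07, Echdc2 at 9.99 and Wfdc1 at 10.6. Hence neither was among the 3 nearest to the other. Mt3 was nearest to Lgals1 at 7.41 points, Penk at 8.69 and Akap7 at 8.99, and Hspb1 to Phgdh at 5.72, Cd151 at 7.53 and Fbxo2 at 7.96. Hspa5 was nearest to Zfp799 at 6.62 points and to Calr, another chaperone of the endoplasmic reticulum, at 6.67, with Cbx3 at 8.22. Calr had 461 CPM in bipolar cells, 344 CPM in cones, 281 in Müller glia, 218 CPM in rods, 41.9 in ganglion cells and 35.7 in amacrine cells. Hspa8 was nearest to Cct8, a subunit of the cytosolic chaperonin, at 8.20 points, with Ckb at 8.29 and Uqcrc2 at 8.81. Hsp90aa1 was nearest to Fem1c at 4.35 points, Ikzf2 at 5.64 and Anp32e at 6.22. Dnaja1 was nearest to Ash2l at 6.18 points, Abhd14b at 7.56 and Serinc1 at 7.76. Dnajb1 was nearest to Pcnp at 3.12 points, Pot1a at 3.71 and Trmt13 at 4.65.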

How the data were processed

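The authors quantified isoforms from nanopore reads of 10x Genomics single-cell cDNA of 4 mouse retina libraries and deposited 1 table of raw counts, an isoform to a row and a cell class to each of 6 columns. The submitters' processing notes name genome build mm10. FLAIR, which collapses long reads into isoform models, is the source named in the deposited annotation. The aligner, the cell calling and typing, the treatment of doublets and of molecular identifiers, and the isoform filter are not given in the sources used here. The table left 0 value columns unused.

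Counts were summed per Ensembl gene (13448 of 13452 matched a symbol) and divided by the column total per 1000000. Poisson, ratio and Clopper-Pearson 95% intervals came from scipy 1.17.1 with pandas 2.3.3 and numpy 2.4.6, and alignments from Biopython. With 1 pooled sample per class there was no test, and rules of size took its place. A count of 0 was given a limit of 3 counts. Models were compared with GENCODE M21, coding sequences came from its transcripts, and promoters from the RefSeq GRCm38 table, in which 7 of the 10 genes had a row (not Cryab, Hspa8 or Hsp90aa1). No protein table was used, so cysteines were counted as codons.

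The genes, gene lists, rules and alternatives were chosen with earlier results of these data known. Named genes were the 10 genes, their leading isoforms overall and in each class and their most abundant unannotated isoform, the 3 genes of each list with the most counts, and the 3 nearest genes by profile, of which 1 is not reported here. Alternatives were other scalings (trimmed mean of M-values, median of ratios), equal depth, annotated isoforms only, leaving out the ganglion cell column, isoforms with the same introns summed, and other minimums and cut-offs.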

Additional observations from a re-analysis of the deposited data

How the results depend on the processing

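No paired analysis was possible because no column has a replicate number or a library, and leaving out a library was not possible for the same reason. Of 91 comparisons of a result with an alternative, 66 stayed within 1.5-fold or within counting error and 25 moved. Only the 49 comparisons of a lead could reverse direction, and 0 of them did. The number of genes led 2-fold was 5, and a 3-fold rule moved it to 1 (Cryab). Under both other scalings and without the ganglion cell column it was 6, with Hspb1 added. Without the ganglion cell column Müller glia were highest for 5 genes, and 0 genes had a dominant isoform switch against 1, since the switch of Dnaja1 involves that column. The same Dnaja1 isoform led in all other columns, so the switch depends on the 252 Dnaja1 counts of the ganglion cell column. Genes with a share difference of 20 points were 3 at a minimum of 50 counts and 3 at 10 points against 1, with Cryab and Hsp90aa1 added to Dnaja1. The unannotated share of isoforms was 16.7%, and 1.82% when counts were used in place of isoforms. Restricted isoforms were 3, moved to 1 at a minimum of 50 counts (Cryab-205) and 1 at 95% of summed CPM (the unannotated isoform of Cryab).

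For the lead of the highest column, 49 alternatives left 31 within counting error and moved 18, some to larger and some to smaller leads, and no lead changed sign. The other scalings changed the size of a column by up to 0.24 on the log2 scale by the median of ratios and 0.14 by the trimmed mean. The leads of Hspa5 (0.08 by the median of ratios against 0.25) and Hspa8 (0.16 against 0.34) were of the order of these shifts. By the same scaling the lead of Hsp90aa1 fell to 0.27 from 0.53, and that of Dnajb1 to 0.23 from 0.41. The leads of Mt3 and Dnaja1 also fell, and those of Mt1, Mt2, Cryab and Hspb1 rose. A lead sets a column against the next, so it can shift by more than a single column does. Leaving out ganglion cells raised the lead of Hspb1 from 0.78 to 2.72, and gave no value for the lead of Mt3, which is highest there. At equal depth, the median of 20 draws kept every lead within counting error. Random draws keep the expected proportions of a column, so this median was bound to stay near the lead at full depth. It does not show the spread of single draws. Ranges of isoform shares for Cryab at equal depth gave no value, since too few counts were left. Depth limits Cryab most, with 15 counts in cones and none in ganglion cells, and Hspa5 in ganglion cells, with 13 counts.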
